A study of Mus musculus with 5 samples.

Results

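Necroptosis is a regulated, inflammatory form of cell death, and the genes described here encode its kinases, its executioner and the death-receptor proteins that start or stop it. The 10 genes Ripk1, Ripk3, Mlkl, Zbp1, Fadd, Casp8, Cflar, Tnf, Tnfrsf1a and Tradd were chosen by symbol, and all 10 were found among the 22683 genes of the deposited table. RNA had been sequenced from satellite cells, the stem cells of skeletal muscle, described in the labels as quiescent and sorted by FACS from wild-type mice (2 libraries) and from mdx mice (3 libraries). The mdx mouse carries a mutation of the dystrophin gene Dmd and is a model of Duchenne muscular dystrophy. A stranded total RNA kit was used on 10000 to 20000 sorted cells per library. Age, strain, muscle, the sorting antibodies and whether libraries came from separate animals are not stated by the labels, so p-values reflect only how these libraries vary, which may be technical variation. The series title names suppression of necroptosis by chromatin in muscle stem cells, and the comparison made here is of the necroptosis genes between satellite cells of dystrophic and healthy muscle.

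In the pathway as it is generally understood, tumor necrosis factor (TNF) binds its receptor TNFR1, which gathers the adaptor TRADD and the kinase RIPK1. Where the protease caspase-8, held by the adaptor FADD and tuned by its catalytically inactive relative cFLIP (Cflar), is active, it cleaves RIPK1 and RIPK3 and blocks necroptosis. Where it is not, RIPK1 or the nucleic acid sensor ZBP1 binds RIPK3 through a shared interaction motif called RHIM, and RIPK3 phosphorylates the pseudokinase MLKL, which then ruptures the plasma membrane.

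In mdx libraries Tnf, Ripk3 and Casp8 were higher and Ripk1 was lower than in wild type, and the other 6 genes did not pass the test. Values are normalized counts, in which the authors scaled each library's reads by a factor of its own and rounded the result. Differences were tested on log2(normalized count + 2) with limma, a linear model fitted over the 18199 genes that reached 10 in 2 or more libraries, and a gene was called at a Benjamini-Hochberg adjusted p under 0.05. All 10 genes passed that filter on low values. Ripk3, Mlkl and Tnf would not have passed it on their wild-type libraries alone. Of the 10 genes, 3 were called higher, against 14.6% of all tested genes, and 1 was called lower, against 10.3%. Together 4 of 10 were called where 24.9% of all tested genes were, so the count among so few genes is not far from the background. At an unadjusted p under 0.05 there were 6 of the 10, against 38.1% of all tested genes. Values of the genotypes were fully separate for 7 of the 10 genes, 6 with all mdx libraries above and 1 with all below, against 52.0% of all tested genes (28.2% above and 23.8% below). The median difference over the 10 genes was 1.43 on the log2 scale, and 0.44 over the 8 genes above 0 in wild type, against 0.135 over all tested genes. The plot of the 10 genes by library shows these values.

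**Figure D1:**
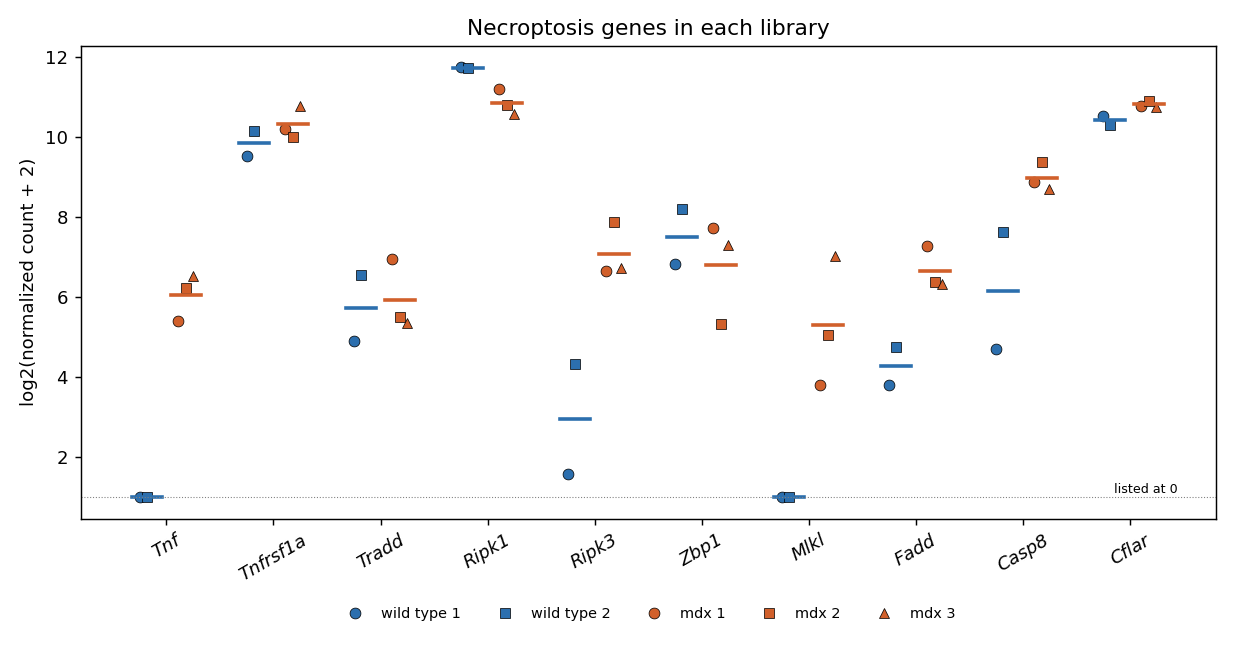
Each of the 10 genes (horizontal axis) in each library, as log2(normalized count + 2) on the vertical axis, with wild type in blue and mdx in orange. Bars are group means on this scale, the dotted line marks genes listed at 0, and marker shapes only name the replicate. Tnf and Mlkl lie on that line in both wild-type libraries, while for Ripk1 both wild-type libraries lie above all 3 of mdx.

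Libraries summed to 12473348 to 16825045 normalized counts, or an estimated 12800000 to 19600000 reads. Dmd, which carries the mdx mutation, was at 11826 and 9266 in wild type against 3700 to 4642 in mdx. The X-inactivation transcript Xist was at 30235 and 30176 in wild type against 0, 0 and 12 in mdx, and the Y-linked Ddx3y at 9 and 0 against 827 to 966, so genotype and sex cannot be told apart in any comparison below. Summed over 8 satellite cell markers, levels were 96123 and 105152 in wild type against 34008 to 47611 in mdx. Of the 8, 1 (Itga7) was higher and 6 were lower in mdx, with none at 0. Most of the wild-type sum was Sdc4 (30886 and 27833) and Chodl (27683 and 29240), both called lower. Pax7 went the other way without being called, from 9103 and 7644 to 12767, 9751 and 14989 (limma adjusted p = 0.0698). Most markers of macrophages, endothelium and mesenchymal cells were higher in mdx. Of 12 macrophage markers 11 were higher, with sums of 429 and 604 in wild type against 10083 to 13927 in mdx, and Itgam, C1qa, C1qb, C1qc and Fcer1g were at 0 in both wild-type libraries. Of 10 endothelial markers 9 were higher and 1 lower (sums 2912 and 3382 against 17971 to 22780, with Emcn and Cldn5 at 0 in wild type). Most of the wild-type sum was Tek, the 1 lower (3223 and 2568 in wild type 1 and 2). Of 9 mesenchymal markers, those of fibro-adipogenic progenitors, 7 were higher and 1 lower (24375 and 28380 against 66526 to 111975, with Postn at 0 in wild type). Here the wild-type sum was mostly Gsn (17849 and 13729), not called, and Dpt (9675 and 9371), the 1 lower. Of 4 tested neutrophil markers 1 was higher (10 and 35 against 138, 739 and 279, with Mpo at 0 in wild type), and of 8 myofiber markers 3 were higher (3282 and 3798 against 28541 to 71874). Of 4 tested lymphocyte markers limma called 0, with 0 at an unadjusted p under 0.05, and their sums overlapped (220 and 44 in wild type, 150, 116 and 65 in mdx). The macrophage, endothelial and mesenchymal sums were thus higher in all mdx libraries, as were the genes that rose below. Their part in those rises was not tested, and in such bulk samples more cells of a type and more RNA per cell cannot be told apart.

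The sequences before the transcription starts of the called genes are given here because the series title names suppression of necroptosis by chromatin. They are the 250 bases upstream of the RefSeq start, in the direction of transcription, on the build GRCm38.p6 that corresponds to mm10. RefSeq entries were matched by symbol for 8 of the 10 genes. Capitals mark each CG dinucleotide, the site of DNA methylation in mammals, which was not measured here.
Ripk3, chr14:55788858-55789107, minus strand: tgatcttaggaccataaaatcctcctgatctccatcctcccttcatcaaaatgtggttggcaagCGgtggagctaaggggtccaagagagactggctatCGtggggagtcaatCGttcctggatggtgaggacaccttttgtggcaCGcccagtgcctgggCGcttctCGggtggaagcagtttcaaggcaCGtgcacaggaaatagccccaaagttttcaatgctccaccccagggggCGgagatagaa
Tnf, chr17:35202008-35202257, minus strand: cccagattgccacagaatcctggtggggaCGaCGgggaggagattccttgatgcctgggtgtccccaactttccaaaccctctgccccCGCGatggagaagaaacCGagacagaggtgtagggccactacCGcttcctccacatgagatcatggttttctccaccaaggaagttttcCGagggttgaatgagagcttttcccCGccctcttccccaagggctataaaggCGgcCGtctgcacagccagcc
Casp8, chr1:58802252-58802501, plus strand: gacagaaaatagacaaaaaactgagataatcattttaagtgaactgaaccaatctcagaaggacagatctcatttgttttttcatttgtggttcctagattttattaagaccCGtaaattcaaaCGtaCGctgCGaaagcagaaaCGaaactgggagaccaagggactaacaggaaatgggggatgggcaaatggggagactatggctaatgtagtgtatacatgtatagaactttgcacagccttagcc
Ripk1, chr13:34002113-34002362, plus strand: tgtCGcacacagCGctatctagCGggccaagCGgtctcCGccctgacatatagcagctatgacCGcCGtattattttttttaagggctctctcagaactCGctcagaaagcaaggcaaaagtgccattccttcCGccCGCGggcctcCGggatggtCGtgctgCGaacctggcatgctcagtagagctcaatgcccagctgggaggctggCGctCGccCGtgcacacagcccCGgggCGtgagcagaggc
The window of Ripk1, the gene called lower, holds 19 CG dinucleotides, more than 80.3% of the 32851 RefSeq windows of this length, whose median is 6. The windows of the 3 genes called higher hold 8 (Ripk3), 10 (Tnf) and 5 (Casp8). Among the genes that were not called, the count is 19 for Fadd, 9 for Tnfrsf1a, 7 for Cflar and 5 for Mlkl. A further RefSeq start of Ripk1, 511 bases downstream of the first, has a window with 32. The RefSeq start of Casp8 lies 7128 bases inside the gene as the deposited table bounds it, so its window is that of an internal start.

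These windows were also searched on both strands for 3 patterns of letters: GGG and CC with any 5 bases between them (an NF-kB type motif, found in 45.8% of all windows), a pair of GAAA with any 2 bases between them (an interferon response type motif, 2.98%) and GAGGAA (a PU.1 type motif, 23.3%). In the Tnf window the NF-kB type match begins 194 bases before the start and the PU.1 type match 117 bases before it. The Ripk3, Casp8, Mlkl, Fadd, Cflar and first Ripk1 windows hold none of the 3 patterns, and the Tnfrsf1a window holds the NF-kB type 216 bases before its start. The window of the second Ripk1 start holds 1 NF-kB type and 2 PU.1 type matches. A match describes letters only and is no evidence of binding.

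Tnf, the ligand that starts the pathway and a cytokine made above all by myeloid cells, lies on chromosome 17 from 35199381 to 35202007 (mm10, minus strand, 4 exons in its longest transcript). It was listed at 0 throughout wild type, against 40, 73 and 91 normalized counts in mdx 1, 2 and 3, or about 32, 78 and 97 reads. All mdx libraries lay above wild type. The difference was 5.05 on the log2(normalized count + 2) scale (SE 1.17, 95% interval 2.41 to 7.69, limma adjusted p = 0.0137), and no fold is given against a group listed at 0. It was called in 13 of 14 alternative settings, some of which kept 1 wild-type library and so took their spread from mdx alone. Its size depended on the number added before the logarithm (7.02 with 0.5 and 2.9 with 10). Tnf was called with any single mdx library left out. The 12 macrophage markers summed to 12646, 13927 and 10083 in mdx 1, 2 and 3, lowest in mdx 3, where Tnf was highest. Which cells the Tnf RNA came from was not tested.

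Tnfrsf1a encodes TNFR1, the receptor through which TNF signals in most cells (chromosome 6, 125349723 to 125362484, plus strand). Its normalized counts were 735 and 1142 in wild type against 1171, 1026 and 1761 in mdx, and the groups overlapped through mdx 2 and wild type 2. The difference of 0.49 on the log2 scale (95% interval −0.20 to 1.17) did not pass (limma adjusted p = 0.271) and turned to −0.11 after correction for transcript length and GC content. Tradd, the adaptor that couples TNFR1 to RIPK1 (chromosome 8, 105258286 to 105264609, minus strand), was at 28 and 92 in wild type against 123, 43 and 39 in mdx. Its groups overlapped, with the lowest value in wild type 1 and the highest in mdx 1, and the log2 difference of 0.21 (95% interval −1.89 to 2.31, limma adjusted p = 0.896) changed sign in 4 of 14 alternative settings. Per kilobase of transcript, RNA of the receptor was more abundant than that of its adaptor in all 5 libraries.

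Ripk1 encodes the kinase that decides between survival signalling, apoptosis and necroptosis downstream of TNFR1 (chromosome 13, 34002363 to 34037147, plus strand, 11 exons in its longest transcript). Its normalized counts were 3427 and 3367 in wild type against 2353, 1784 and 1532 in mdx. The wild-type libraries nearly coincided, and every mdx value was lower. Means were 3397 ± 42.4 (SD, n = 2) and 1889.7 ± 421 (SD, n = 3), a fall of 0.87 on the log2 scale (SE 0.22, 95% interval −1.37 to −0.37), or 1.83-fold (limma adjusted p = 0.0203). Its call was lost without mdx 2 (adjusted p = 0.0835) or mdx 3 (0.0767), and with equal library totals (−0.68, 0.0708) or no trended and robust moderation (0.162). After length and GC correction the fall was larger, at −1.60 (adjusted p = 0.00102). The pseudogene Gm17084 shares 511 bases of exon with Ripk1 on the same strand (6.12% of its exon bases). The neighbor Serpinb6a, a protease inhibitor gene on the opposite strand, shares 241 (2.89%) and was itself called lower, from 3057 and 2716 to 1360, 1467 and 1493. The strand setting of the counting is not known from the labels, so reads in these stretches could belong to either gene.

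Ripk3 encodes the kinase that all necroptosis triggers converge on (chromosome 14, 55784996 to 55788857, minus strand, 10 exons in its longest transcript). Its normalized counts were 1 and 18 in wild type, about 1 and 21 reads, and 98, 233 and 104 in mdx, about 79, 249 and 111 reads. All mdx libraries lay above wild type, with mdx 2 the highest. Means were 9.5 ± 12.0 (SD, n = 2) and 145 ± 76.3 (SD, n = 3). The difference of 4.13 on the log2 scale (SE 1.09, 95% interval 1.67 to 6.59) corresponds to 17.5-fold, with an interval of 3.18-fold to 96.3-fold (limma adjusted p = 0.024). The size rests on the wild-type library it is set against: it was 2.76 with wild type 2 alone and 5.50 with wild type 1 alone. Its call was lost without mdx 1, 2 or 3 (adjusted p = 0.0819, 0.111 and 0.0928) and without trended and robust moderation (0.0543). The other pseudocounts, filters and scalings and the length and GC correction gave 3.04 (pseudocount 10) to 4.67 (pseudocount 0.5), all called. Within mdx, the marker sums of macrophages (12646, 13927 and 10083 in mdx 1, 2 and 3) and neutrophils (138, 653 and 279) were highest in mdx 2. So was that of myofibers (45053, 71874 and 28541), which was mostly Ttn (37164, 64744 and 23685). The myofiber markers Acta1 (2255, 933 and 1234), Ckm, Myh1, Myh4 and Tnnt3 were instead lowest in mdx 2. Marker sums of endothelium (22780, 19429 and 17971) and mesenchymal cells (111975, 66526 and 77359) were highest in mdx 1.

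Mlkl, the executioner pseudokinase (chromosome 8, 111311797 to 111338177, minus strand), was listed at 0 throughout wild type, against 12, 31 and 129 normalized counts in mdx, about 10, 33 and 137 reads. All mdx libraries lay above wild type, with mdx 3 far above the other two. The difference of 4.30 on the log2(normalized count + 2) scale (SE 1.39, 95% interval 1.14 to 7.45) fell just short of the threshold (limma adjusted p = 0.0516), and no fold is given against a group listed at 0. It passed without mdx 1 (5.04, adjusted p = 0.0464) and with a pseudocount of 0.5 (6.21, 0.041), while a pseudocount of 10 gave 2.32 (0.0816). Zbp1, the sensor of nucleic acids in the Z conformation that activates RIPK3 without TNF (chromosome 2, 173206612 to 173218923, minus strand), was at 112 and 291 in wild type against 212, 38 and 157 in mdx. Its groups overlapped, with the highest value in wild type 2 and the lowest in mdx 2. The log2 difference of −0.72 (95% interval −2.56 to 1.12, limma adjusted p = 0.549) became 0.01 without mdx 2. Zbp1, unlike Mlkl, was present in every library, and the highest Ripk3 value and the lowest Zbp1 value came from the same library, mdx 2.

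Fadd, the adaptor that recruits caspase-8 (chromosome 7, 144577318 to 144582463, minus strand, 2 exons), was at 12 and 25 in wild type against 153, 81 and 79 in mdx. All mdx libraries lay above wild type, at means of 104 ± 42.2 (SD, n = 3) and 18.5 ± 9.19 (SD, n = 2). The 2.38 difference on the log2 scale (95% interval 0.44 to 4.32) was 5.21-fold. It did not pass (limma adjusted p = 0.0723), but did without trended and robust moderation (0.0455), and was 2.86 without wild type 2. It was 1.72 after length and GC correction. The antisense RNA Faddos overlaps 239 bases of Fadd exon (6.12%) and was at 0 and 43 in wild type against 5, 47 and 0 in mdx.

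Casp8, the protease that restrains necroptosis and starts apoptosis (chromosome 1, 58795374 to 58847503, plus strand, 9 exons in its longest transcript), was at 24 and 196 normalized counts in wild type against 467, 664 and 417 in mdx. The wild-type libraries differed widely, yet both lay below every mdx library. Means were 110.0 ± 122 (SD, n = 2) and 516 ± 131 (SD, n = 3). The difference of 2.82 on the log2 scale (SE 0.76, 95% interval 1.1 to 4.54) is 7.08-fold (limma adjusted p = 0.0263). The log2 difference was 1.36 against wild type 2 alone and 4.29 against wild type 1 alone, and the call ended without mdx 1, 2 or 3 (adjusted p = 0.12, 0.134 and 0.113) and without trended and robust moderation (0.121). Cflar, whose protein cFLIP pairs with caspase-8 and tunes its activity, lies on the same strand 36490 bases before Casp8 (58711551 to 58758884). It was at 1481 and 1270 in wild type against 1765, 1923 and 1728 in mdx. All mdx libraries lay above wild type by a narrow margin, and the log2 difference of 0.39 (95% interval −0.05 to 0.84) did not pass (limma adjusted p = 0.176) and turned to −0.32 after length and GC correction.

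**Figure D2:**
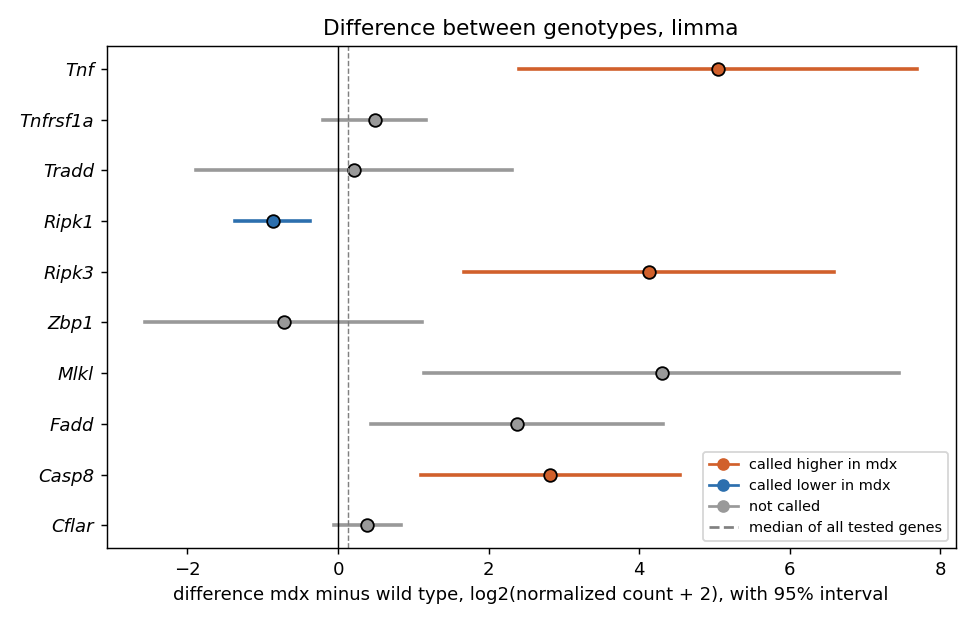
Difference between mdx and wild type for each gene on the log2(normalized count + 2) scale (horizontal axis), with the 95% interval from limma (2 wild-type and 3 mdx libraries). Orange marks genes called higher in mdx, blue the gene called lower and grey those not called. Intervals of Tnf, Ripk3 and Casp8 lie above 0 and that of Ripk1 below it, while those of Mlkl and Fadd exclude 0 without passing after adjustment over all genes.

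Ratios between genes of 1 library do not depend on how libraries were scaled. Levels per kilobase of the longest transcript annotated in GENCODE release M21 were used for them. The ratio of Casp8 to Cflar was 0.0412 and 0.392 in wild type against 0.673, 0.878 and 0.614 in mdx, so cFLIP transcripts outnumbered caspase-8 transcripts in all 5 libraries, by less in mdx. The ratio of Ripk3 to Ripk1 was 0.000962 and 0.0176 in wild type against 0.137, 0.43 and 0.224 in mdx. Ripk1 thus stayed above Ripk3 in every library. The ratio of Ripk3 to Casp8 was 0.0548 and 0.121 in wild type against 0.276, 0.462 and 0.328 in mdx. For each of these ratios all mdx libraries lay above both wild-type libraries, and the exact two-sided permutation test on the log2 ratio gave p = 0.2 each time, the smallest p that the 10 possible splits of 2 against 3 libraries allow.

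Ordered by level per kilobase, wild-type libraries had Ripk1 first (525 ± 6.56, SD, n = 2), then Tnfrsf1a (435 ± 133) and Cflar (209 ± 22.7). Ripk1 and Tnfrsf1a overlapped between libraries, and both lay above Cflar. Zbp1 (60.6), Casp8 (42.6) and Tradd (35.5) followed without separating from one another, then Ripk3 (4.84) and Fadd (4.74), also not separated, and Mlkl and Tnf at 0. In mdx libraries Tnfrsf1a came first (612 ± 181, SD, n = 3), above Ripk1 (292 ± 65.0) and Cflar (275 ± 15.8), which were not separated. Casp8 (199.6 ± 50.5) was next, apart from its neighbors on both sides. Below it Ripk3 (73.8), Tnf (41.5), Zbp1 (40.8), Tradd (40.5), Mlkl (28.6) and Fadd (26.7) were not separated from the next in order. Among all tested genes with a known length, Ripk3 moved from the 16.5th to the 55.9th percentile, Casp8 from the 45.1st to the 80.5th and Ripk1 from the 92.2nd to the 87.9th.

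**Figure D3:**
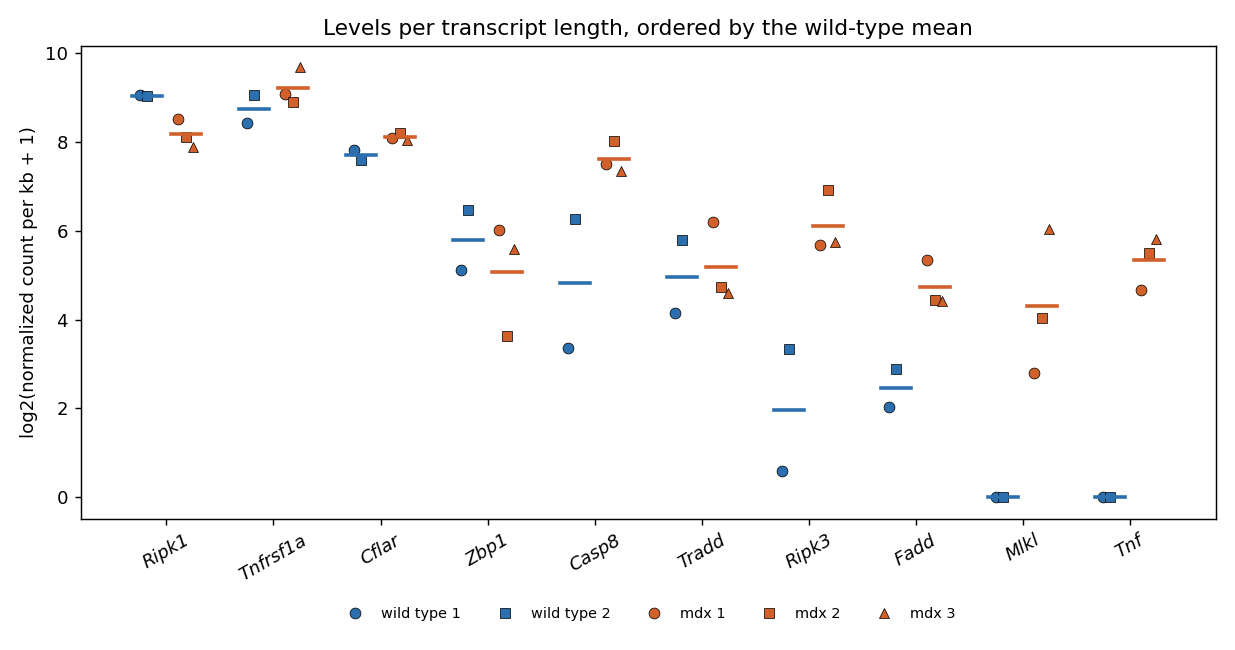
Levels per kilobase of transcript in each library, as log2(normalized count per kb + 1) on the vertical axis, with genes ordered by their wild-type mean from left to right and bars at group means on this scale. Ripk1, Tnfrsf1a and Cflar are high in all libraries, and the spread between wild-type libraries is widest for Casp8, Ripk3 and Tradd.

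To see which other genes resembled the 3 core proteins' genes, each tested gene with a mean of at least 50 was compared over the 5 libraries by the root mean square difference of its centred log2 values. Nearest to Ripk3, over 5 libraries and 11267 genes, were Wdfy4 (0.167), Fermt3 (0.168) and Spon2 (0.169), of which Wdfy4 was at 4 and 48 in wild type against 197, 428 and 190 in mdx. Nearest to Ripk1 were Hnrnpa2b1 (0.068), Ptbp2 (0.071) and Appl1 (0.077). For Mlkl no gene came as near. Mx1 (0.604), Cyp4b1 (0.642) and Chl1 (0.659) were the closest, all 3 also listed at 0 in both wild-type libraries.

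Around the 10 genes, 8 lists of related genes held 87 tested genes, of which 13 were higher, 9 lower and 65 not called in mdx. The called share of 25.3% is near the background of 24.9%, and the median log2 difference was 0.11. Of the 21 called genes named below, 9 were called with any single library left out and 12 were not.

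Other death receptors, related receptors of the TNF receptor family and their ligands had 3 of 9 tested genes higher and 1 lower (median 0.99). The death receptor genes Fas, Tnfrsf10b and Tnfrsf25 were not called (limma adjusted p = 0.831, 0.346 and 0.633). Tnfrsf1b, which encodes TNFR2, the second TNF receptor, was at 207 and 148 in wild type against 730, 770 and 653 in mdx, a 4.06-fold rise (limma adjusted p = 0.00256). Its change was 1.27 instead of 2.02 on the log2 scale after length and GC correction (adjusted p = 0.022). Tnfrsf21, encoding death receptor 6, rose 2.99-fold (limma adjusted p = 0.0203), though it was not called without mdx 1 or 3 (0.0708 and 0.0814) or after length and GC correction (0.117). Ltbr, encoding the lymphotoxin beta receptor, rose 2.22-fold (0.0455) and kept its call only without wild type 2 (0.0961 without wild type 1 and 0.132, 0.0605 and 0.152 without mdx 1, 2 and 3). Its log2 difference was 0.09 after length and GC correction. Tnfrsf12a, encoding the TWEAK receptor Fn14, fell 2.7-fold, from 1139 and 1360 to 652, 264 and 565 (limma adjusted p = 0.0279), and was not called without mdx 1, 2 or 3 (0.0574, 0.0509 and 0.0863).

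Ubiquitin regulators of RIPK1 had 2 of 15 genes higher and 1 lower (median 0.20). Stub1, encoding the ubiquitin ligase CHIP, rose 6.82-fold from 43 and 72 to 299, 509 and 395 (limma adjusted p = 0.00438), with a log2 difference of 1.69 in place of 2.77 after length and GC correction. Sharpin, a subunit of the linear ubiquitin ligase, rose 3.57-fold (0.0436), and was not called without wild type 2 (0.199) or any of mdx 1, 2 and 3 (0.129, 0.132 and 0.12). Without wild type 1 its log2 difference was 2.6, against 1.84. Tnfaip3, encoding the inhibitor A20, fell 2.0-fold from 2225 and 1884 to 888, 1374 and 877 (0.0222). That fall was not called without mdx 1 or 3 (0.0936 and 0.0948) or with equal library totals (0.108), and was −1.82 after length and GC correction.

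Of 11 kinases and partners downstream of TNFR1 limma called 0 (median 0.25), 3 having an unadjusted p under 0.05, where 38.1% of all tested genes did. Tab2, a ubiquitin-binding partner of the kinase TAK1, was at 1173 and 1125 in wild type against 1698, 1903 and 1545 in mdx (limma adjusted p = 0.0703), with a log2 difference of 0.57, or −0.06 once corrected for length and GC. Ikbke, encoding the kinase IKK epsilon, was at 75 and 15 against 92, 336 and 152 (0.0948). Its log2 difference was 2.23, or 3.32 without wild type 1.

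Among other triggers of RHIM signalling, 1 of 15 genes was higher and 3 were lower (median 0.07). Tlr4, the receptor for bacterial lipopolysaccharide, fell 4.75-fold from 1453 and 1687 to 283, 383 and 326 (limma adjusted p = 0.000617). Irf9 and Irf1, encoding transcription factors of the interferon response, fell 3.71-fold and 1.86-fold (0.00175 and 0.0113). The fall of Irf1 was not called without mdx 1 or 3 (0.051 and 0.0528) or with equal library totals (0.0904), and that of Irf9 was −2.51 instead of −1.89 after length and GC correction. Adar, encoding the RNA editing enzyme that limits ZBP1 activation, rose 3.85-fold from 205 and 150 to 608, 886 and 584 (limma adjusted p = 0.00465), with 0.84 instead of 1.94 and no call after length and GC correction (0.107).

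Downstream effectors had 2 of 10 genes lower and 0 higher (median −0.25). Diablo and Cycs, encoding the mitochondrial proteins SMAC and cytochrome c that are released in apoptosis, fell 2.6-fold and 2.43-fold (limma adjusted p = 0.0443 and 0.0438). Without wild type 2 they had adjusted p = 0.364 and 0.282, and without mdx 1, 2 or 3 Diablo had 0.121, 0.106 and 0.125 and Cycs 0.102, 0.0847 and 0.0953. The log2 difference of Diablo without wild type 2 was −0.80, against −1.38. Regulators of MLKL and of membrane repair had 2 of 16 genes higher and 1 lower (median −0.29). Hsp90aa1, encoding a chaperone of RIPK1, RIPK3 and MLKL, fell 3.72-fold from 19303 and 16948 to 5100, 5052 and 4471 (limma adjusted p = 7.39e-05), or −1.17 in place of −1.89 after quantile normalization. The related Hsp90ab1 of the same list was not called, at 29287 and 21535 against 24671, 23449 and 27062 (0.985). Rab27a, a GTPase of vesicle release, was listed at 0 throughout wild type, against 201, 168 and 34 in mdx (0.00945). Its log2(normalized count + 2) difference was 6.54 without mdx 3, against 5.75. Pdcd6ip, encoding the ESCRT partner ALIX, rose 1.91-fold (0.0367), and was not called without mdx 2 or 3 (0.135 and 0.147), and had 0.14 after length and GC correction.

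Of 4 other RIP kinase relatives Lrrk1 rose 5.68-fold, from 176 and 275 to 1376, 1138 and 1277 (limma adjusted p = 0.000488, with 1.16 instead of 2.51 after length and GC correction), and 0 fell (median 0.31). Of 7 chromatin repressors 4 were higher and 1 lower (median 0.88). Chd4, the NuRD remodeller ATPase, was at 4211 and 4491 in wild type against 8791, 9026 and 7187 in mdx, a 1.91-fold rise (0.00424) whose log2 difference of 0.93 became −0.23 once corrected for length and GC. Uhrf1, which brings the maintenance methyltransferase to new DNA, was at 37 and 0 in wild type against 250, 813 and 421 in mdx (0.0085). Its log2 difference of 5.65 was 7.79 or 3.51 without wild type 1 or 2, and its call ended without mdx 1, 2 or 3 (0.0578, 0.0794 and 0.0777). Dnmt1, that methyltransferase, rose 2.46-fold (0.0145), and was not called without mdx 2 or 3 (0.052 and 0.0725), with 0.16 after length and GC correction. Mta2, a NuRD subunit, fell 1.72-fold (0.0286), and was not called without wild type 2 (0.156), mdx 1, 2 or 3 (0.0761, 0.0796 and 0.0667) or with equal library totals (0.127).

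**Figure D4:**
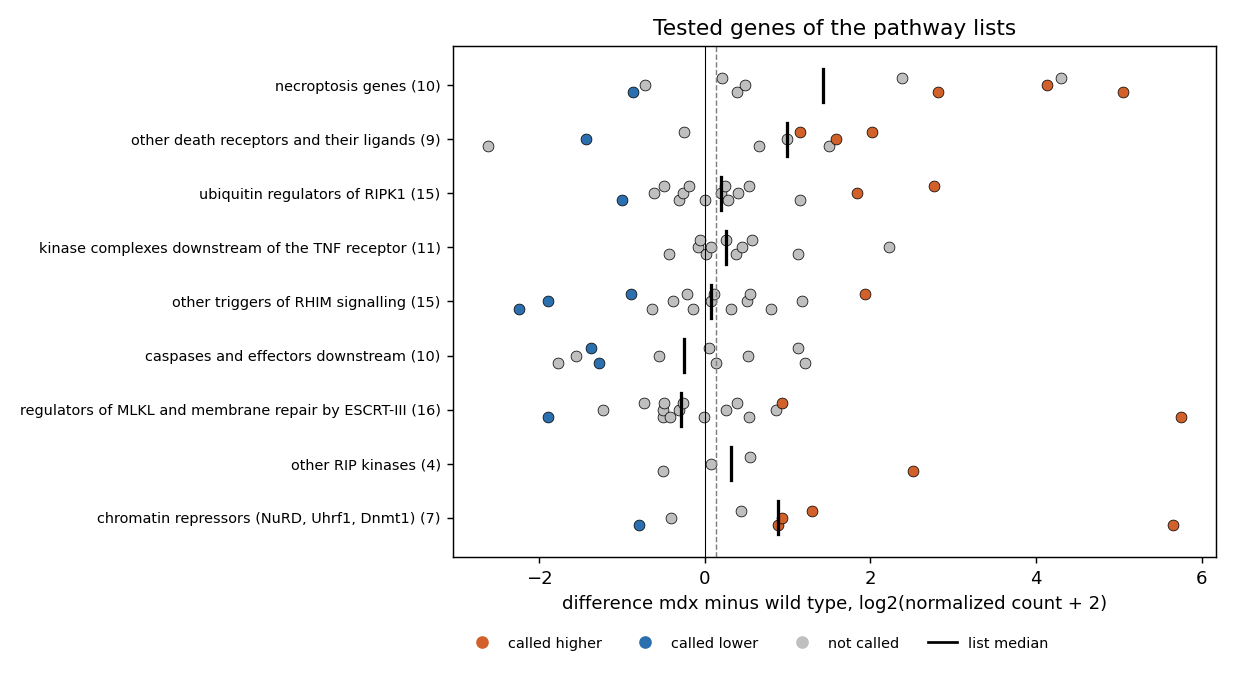
Tested genes of the 10 necroptosis genes' own list and of the 8 related lists, as the difference between mdx and wild type on the log2(normalized count + 2) scale (horizontal axis), with the number tested in brackets. Points are genes, colored by call, black bars are list medians and the dashed line is the median of all tested genes (0.135). Medians of the related lists run from −0.29 to 0.99.

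**Figure D5:**
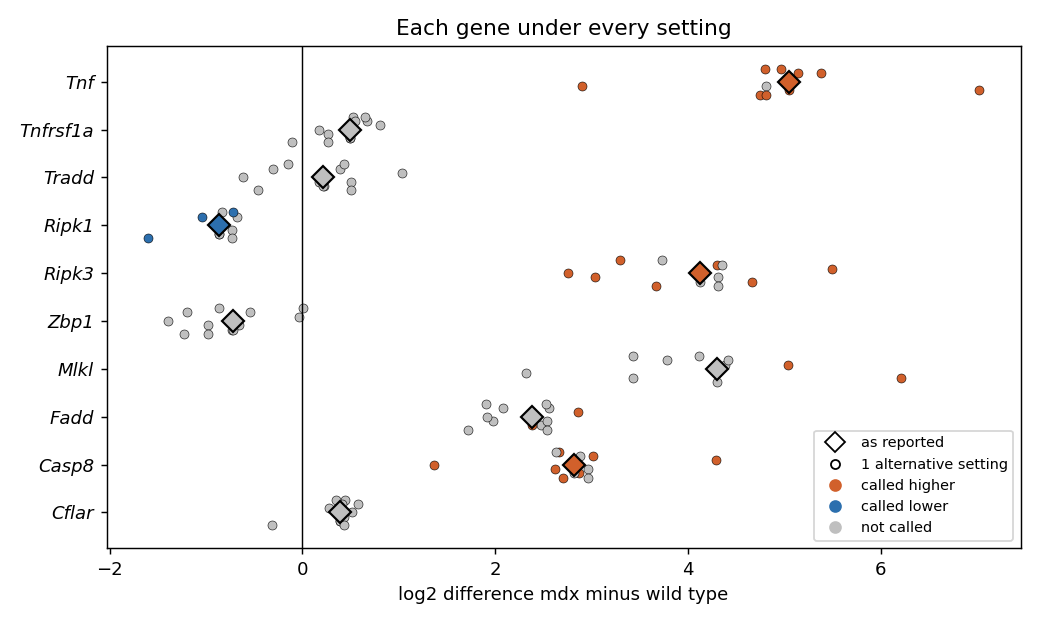
The log2 difference of each necroptosis gene as reported (diamond) and under each alternative setting (circles), 14 for each gene but Mlkl, which has 13. Colored symbols passed an adjusted p under 0.05. Ripk3, Casp8, Tnf, Mlkl and Fadd stay above 0 and Ripk1 below it in the settings run, while Zbp1, Tradd, Tnfrsf1a and Cflar have values on both sides of 0.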

How the data were processed

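The deposited table holds normalized counts for 22683 genes in 2 wild-type and 3 mdx libraries, treated here as a score: whole numbers that are not raw counts. This rests on the values: all columns have nearly the same median ratio to each gene's geometric mean (1.0347 to 1.0355) while totals differ, and in mdx 1, 6 of the whole numbers from 1 to 30 never occur. The submitters' processing notes name STAR 2.6.1d, featureCounts 1.6.3, DESeq2 1.18.1 and mm10. Strand setting and filters are not stated there. The worth of 1 read (0.86 to 1.245 normalized counts) was estimated from the frequencies of the low values.

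Log2(value + 2) was fitted with limma 3.58.1 (R 4.3.3), trended and robust, with genotype as the only term and Benjamini-Hochberg adjustment. On 5 simulated tables with 200 changed genes and about 17776 tested genes each, 2.09% of 2-fold, 38.5% of 4-fold and 68.8% of 16-fold changes were called, and 7.4% of calls were false. The changed genes had means of at least 50 and were a far smaller share than the 24.9% called here. These shares therefore do not carry over to the deposited table, nor to genes with lower means. Lengths and GC came from GENCODE release M21 (22649 identifiers found). Alternatives varied the pseudocount, filter, scaling, length and GC trend, moderation, replicate block and libraries included. The genes, the lists and the rule naming up to 4 called genes per list (or 2 where none was called) by smallest p, and the 3 genes nearest each core gene, were chosen with earlier results of these data known. Markers of lymphocytes were summed over the tested ones, and 1 marker is not reported here.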

Additional observations from a re-analysis of the deposited data

How the results depend on the processing

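With 1 library left out, 2562 to 5161 genes were called (main 4527), 1450 to 3308 higher (main 2659) and 1112 to 1853 lower (main 1868). Of the 10 necroptosis genes, 1 to 5 were then called, 1 to 4 higher and 0 to 1 lower. With any 1 library of either genotype left out, log2 differences ranged from −1.04 to −0.73 for Ripk1, 2.76 to 5.50 for Ripk3 and 3.43 to 5.04 for Mlkl. They ranged from −1.40 to 0.01 for Zbp1 and −0.62 to 1.03 for Tradd. Leaving out mdx 2 or mdx 3 gave Tnf alone as called.

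The replicate numbers gave no sign of pairing: correlations of deviations between same-numbered libraries were −0.014 and −0.017. With the replicate block, which leaves 1 residual degree of freedom and takes mdx 3 out of the comparison, 2023 genes were called (1163 higher, 860 lower) and 0 of the 10 necroptosis genes, with 0 higher and 0 lower. Under the block Ripk1 was at −0.73 (adjusted p = 0.108), Ripk3 at 4.31 (0.0748), Casp8 at 2.96 (0.0514) and Tnf at 4.81 (0.0785).

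Without trended and robust moderation 3005 genes were called, 1150 of them lower, with 2 of the 10 genes (Tnf and Fadd), 0 of them lower, and unchanged differences of −0.87 for Ripk1 and 4.13 for Ripk3. Equal library totals moved the median of all genes by 0.18 and left 0 of the 10 genes called lower, with Ripk1 at −0.68. Quantile normalization moved that median by −0.13 and turned Tradd to −0.15. Length and GC correction moved it by −0.47 and called 1454 higher and 3199 lower, so that 31.2% of calls were higher, against 58.7%. It turned the differences of Cflar (−0.32), Tnfrsf1a (−0.11), Tradd (−0.46), Tab2 (−0.06) and Chd4 (−0.23). A pseudocount of 0.5 brought Mlkl to 6.21, past the threshold. With a minimum of 50 Mlkl was not tested. For these changes the cause was not tested. Of 322 values of the 23 related genes named by the rule on smallest p, 243 kept direction and call, 76 lost the call, 1 gained it and 2 reversed. Few reads lie behind the wild-type values of Ripk3, Tnf, Mlkl and Fadd, at most 29 estimated in either library. The wild-type libraries were nonetheless the deeper ones. They had an estimated 17100000 and 19600000 reads, against 12800000, 13300000 and 14800000 in mdx 1, 2 and 3.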

Other observations

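Genes next to the 10 necroptosis genes were read as well, within 50 kb of either end. Of 38 such tested genes 8 were higher (21.1%) and 4 lower (10.5%) in mdx, against 14.6% and 10.3% of all tested genes. The genes named here were chosen after their values were seen. Adcy4, an adenylyl cyclase gene 954 bases from Ripk3 on the same strand, was at 31 and 40 in wild type against 547, 481 and 298 in mdx, an 11.6-fold rise (limma adjusted p = 0.00152). Nfatc4, a transcription factor gene 35938 bases from Ripk3, went from 4 and 14 to 217, 60 and 181 (0.0227). Ano1, a chloride channel gene 6086 bases from Fadd, was listed at 0 throughout wild type, against 239, 327 and 325 in mdx (0.000635). Between them and their necroptosis neighbors the order of the mdx libraries differed: Ripk3 was highest in mdx 2 and Adcy4 and Nfatc4 in mdx 1. Near Tnf, the small nucleolar RNA genes Gm23442 and Gm25128 had 7367 and 7792 and 2041 and 2834 normalized counts in wild type, while in mdx they had 32, 37 and 8 and 0, 0 and 11 (limma adjusted p = 4.4e-05 and 0.000415). Ltb, the lymphotoxin beta gene 3061 bases from Tnf, was at 0 in all libraries but mdx 1 (17) and was not tested.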
